A study of Mus musculus with 13 samples.

Results

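Adhesion G protein-coupled receptors were followed in EPLMs, the early bone marrow progenitors with lymphoid and myeloid potential, by all probe sets with 1 gene symbol of 9 genes: the latrophilin genes Adgrl1, Adgrl2, Adgrl3 and Adgrl4, the leukocyte receptor genes Adgre1 and Adgre5, and Adgrg1, Adgrg3 and Adgrg6. They hold 20 of 45037 probe sets and are 9 of 18193 genes with such a probe set. EPLMs were sorted by a gate that included B220+, c-kit+, CD93+ and NK1.1- from bone marrow of 3 WT and 3 BCS littermates, all 7 weeks old and of B6CF1 x C57BL/6 background, with 1 Affymetrix mouse GeneChip for each animal. BCS mice carry a human OBF1 cDNA with an HA tag under the mouse Eμ enhancer and a VH promoter, which is active in B lineage cells and can also be active in T cells. WT mice carry no transgene, and which of the study's transgenic lines the arrays come from is not given in the sources used here. The array reads mouse genes, so the human transgene does not check the labels. The genes were chosen by their BCS and WT intensities on these same arrays, so their differences between the genotypes are a description, given with no test.

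Adhesion receptors join a long extracellular region, which holds on to other cells or to the matrix, to a membrane-spanning core that signals through G proteins. Most cut themselves at a site next to the membrane, and the short stub left on the core can act as a tethered agonist when the outer fragment is pulled away. In blood cells the family is best known through F4/80, the product of Adgre1 and the classical surface marker of mouse macrophages, and through CD97, the product of Adgre5, which is carried by most leukocytes.

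Adgrl2, Adgrg1 and Adgrg6 had BCS intensities that did not overlap the WT intensities, and the stretches around their annotated start sites are shown because these genes differed between the genotypes. The sequences are RefSeq promoters of build GRCm38.p6, from 250 bases before to 50 bases after each start, and 7 of the 9 genes matched, with 10 starts in all. Adgrl2 lies at chr3:148954586-148954885 on the minus strand, Adgrg1 has starts at chr8:94976859-94977158 and at chr8:94984149-94984448 on the plus strand, and Adgrg6 lies at chr10:14544987-14545286 on the minus strand. Capitals mark the E box CANNTG, the core motif of E proteins, the factors that Id proteins inhibit.
Adgrl2: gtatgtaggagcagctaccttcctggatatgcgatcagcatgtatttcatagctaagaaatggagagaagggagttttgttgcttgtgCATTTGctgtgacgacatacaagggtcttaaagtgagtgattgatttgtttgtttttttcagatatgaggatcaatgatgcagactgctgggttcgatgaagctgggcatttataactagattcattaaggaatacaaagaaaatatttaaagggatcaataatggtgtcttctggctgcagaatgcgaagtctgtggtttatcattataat
Adgrg1, first start: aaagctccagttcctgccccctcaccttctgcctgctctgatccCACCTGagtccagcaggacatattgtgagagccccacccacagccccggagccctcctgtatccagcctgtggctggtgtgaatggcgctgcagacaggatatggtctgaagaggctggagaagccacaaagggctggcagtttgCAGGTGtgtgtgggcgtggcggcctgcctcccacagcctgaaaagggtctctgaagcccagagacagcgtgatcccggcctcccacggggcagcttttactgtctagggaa
Adgrg1, second start: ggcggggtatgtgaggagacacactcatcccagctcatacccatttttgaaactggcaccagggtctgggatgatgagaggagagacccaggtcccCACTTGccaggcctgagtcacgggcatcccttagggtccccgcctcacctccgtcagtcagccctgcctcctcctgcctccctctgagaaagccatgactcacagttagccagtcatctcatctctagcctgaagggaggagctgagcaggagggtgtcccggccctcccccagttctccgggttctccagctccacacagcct
Adgrg6: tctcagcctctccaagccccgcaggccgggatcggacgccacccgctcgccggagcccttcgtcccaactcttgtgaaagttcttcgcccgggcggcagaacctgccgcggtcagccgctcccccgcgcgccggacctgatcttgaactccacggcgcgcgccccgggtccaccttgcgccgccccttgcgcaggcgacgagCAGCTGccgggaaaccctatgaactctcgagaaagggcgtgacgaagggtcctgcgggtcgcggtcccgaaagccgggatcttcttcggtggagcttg
The octamer ATGCAAAT, the motif of the Oct factors that OBF1 joins, was searched on both strands and was in 0 of the 10 windows, beside 1.74% of 32851 RefSeq promoters of the same length. The E box, which reads the same on both strands in its fixed letters and was searched after the values had been seen, was in 8 of the 10 windows, beside 72.3% of all promoters. The windows of Adgrl2 and Adgrg6 differed in base composition, with 38% G and C and 4 CpG in the former and 69% and 38 in the latter. A match is no evidence of binding, and a missing match speaks only for the letters of these windows.

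Intensities are linear GCRMA values with a median of 20 on each array, and a probe set below this median is called dim here because it carries little signal over background. Probe sets differ in how strongly they bind their target, so levels are compared between mice and not between genes. Differences are means of log2 of the intensity plus 1 in BCS minus WT mice, with the standard error from limma over 45037 probe sets, and a gene, read by its brightest probe set, was called changed at a Benjamini-Hochberg adjusted p under 0.05. By this measure 3 of the 9 genes lay past the threshold on the higher side and none on the lower side, beside 7.85% of 18193 genes in either direction, 3.15% higher and 4.7% lower. The same 3 genes had no overlap between the genotypes, beside 14.5% of genes without overlap on the higher and 14.2% on the lower side. Of the 20 probe sets, 5 were past the threshold, all higher, beside 5.49% of all probe sets (2.24% higher and 3.25% lower), and 6 did not overlap, beside 23.9% in either direction and 12.6% higher. Nothing is read from these counts, since the same contrast chose the genes. The median difference of the 9 genes was 0.02 on the log2 scale, and that of all genes was 0.01. The share past the threshold among genes whose brightest probe set was above the array median on all 6 arrays, as it was for 7 of the 9 genes, was 12.5%. Of the 20 probe sets, 11 were above the array median on all 6 arrays and 7 on none, and 8 of the 9 genes had a brightest probe set above it on at least 3 arrays. The gene left out by such a filter was Adgrl3, and Adgrg6 passed it only through its 3 BCS arrays.

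**Figure D1:**
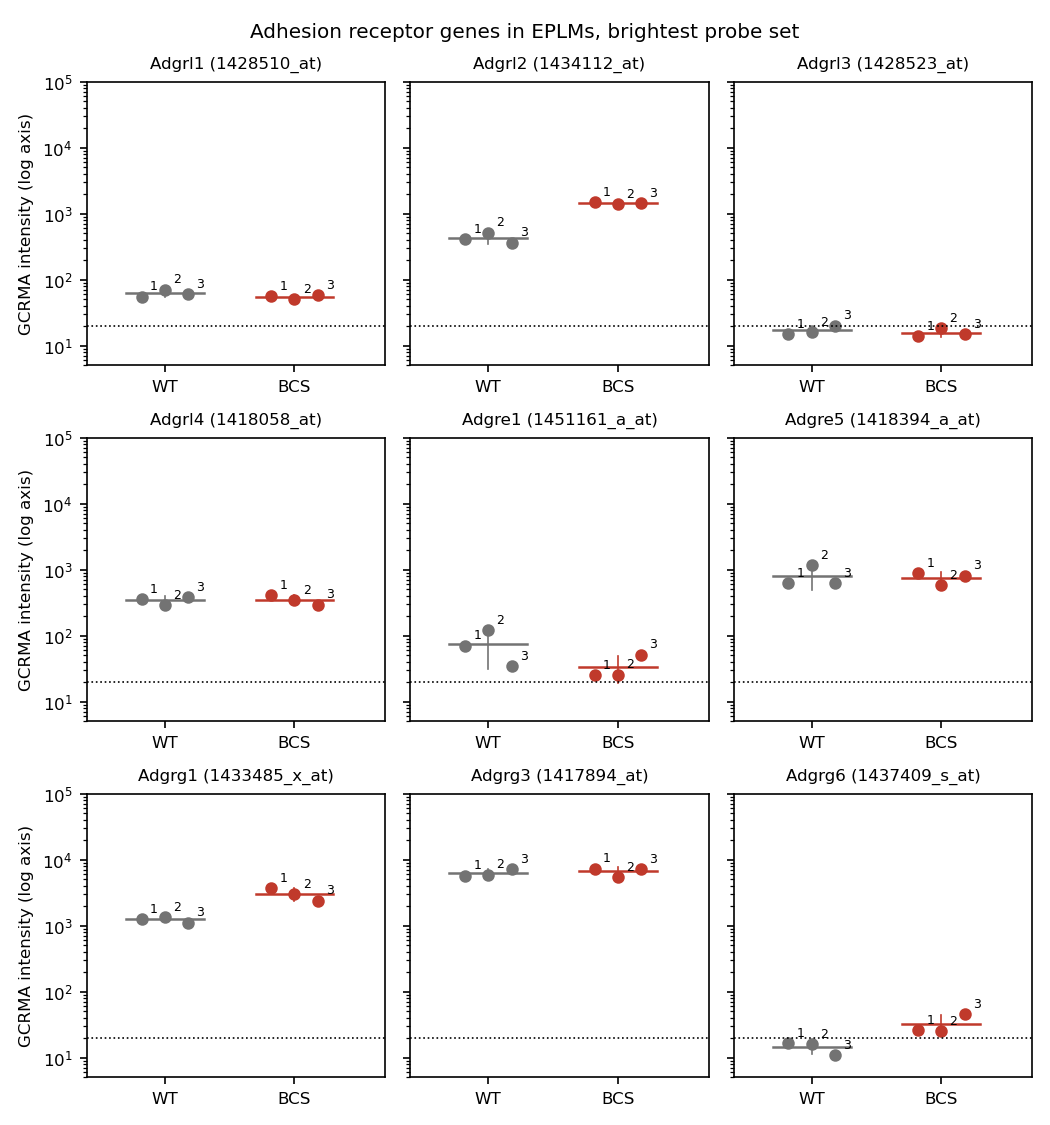
GCRMA intensity (log axis) of the brightest probe set of each of the 9 genes in EPLMs. Points are single mice with their replicate number (gray for the 3 WT mice and red for the 3 BCS mice), with the mean as a horizontal bar, 1 SD on each side as a vertical line and the array median of 20 dotted. The BCS mice lie above the WT mice for Adgrl2, Adgrg1 and Adgrg6, and the genotypes overlap for the other 6 genes.

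Among the latrophilins, adhesion receptors that bind teneurins and FLRT proteins on neighboring cells in the nervous system, Adgrl2 differed and the others overlapped. The brightest Adgrl2 probe set, 1434112_at, had intensities of 405, 511 and 361 in the WT mice and of 1481, 1394 and 1434 in the BCS mice. All BCS mice were thus more than 2-fold above every WT mouse, and they varied little among themselves, with a mean of 1436 ± 43.9 (SD, n = 3) beside 426 ± 77.2 (SD, n = 3) in WT mice. The difference was 1.77 on the log2 scale (standard error 0.16), or 3.40-fold. A second probe set, 1434111_at, had intensities of 116, 287 and 292 in WT mice and of 959, 780 and 1117 in BCS mice, with a difference of 2.14 (standard error 0.34). WT replicate 1 was the low one on this probe set and the middle one on the brighter probe set. The last Adgrl2 probe set, 1444906_at, was dim on every array, between 9.02 and 12.1, and whether it follows the gene cannot be read here.

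Adgrl1, the latrophilin first known as a receptor of spider venom toxin, had intensities of 55.0, 70.0 and 60.8 in WT mice and of 56.7, 51.1 and 58.2 in BCS mice. The genotypes overlapped, with a difference of -0.16 (standard error 0.17) on this probe set and of -0.10 (standard error 0.20) on the dimmer one. Adgrl3, whose product binds FLRT3 in the brain, has 6 probe sets, and 5 of them were below the array median on all 6 arrays. Its brightest lay between 15.0 and 19.98 in WT mice and between 13.9 and 18.2 in BCS mice, below the array median in every mouse. The sixth, 1439313_at, was above it in BCS replicate 3 alone, at 20.6, so the level of the transcript cannot be read here. Adgrl4, which is best known from endothelial cells and lacks the binding domains that the other latrophilins use for teneurins and FLRT proteins, had intensities of 354, 290.0 and 385 in WT mice and of 411, 343 and 293 in BCS mice. These overlapped, with a difference of 0.02 (standard error 0.19), and the dimmer probe set had a difference of 0.25 (standard error 0.17). Of the 8 measured endothelial markers, Kdr, Tek, Emcn, Cldn5 and Tie1 were dim on every array, Esam was above the array median on 2 arrays, and Pecam1 and Cdh5 were above it on all 6. Pecam1, an adhesion molecule also carried by leukocytes, was 183, 96.4 and 118 in WT mice and 112, 69.0 and 76.0 in BCS mice, and these overlapped. The part of endothelial cells in the Adgrl4 values was not tested. The summed endothelial intensity was 364 to 410 in WT mice and 187 to 275 in BCS mice. A large part of the WT sums was Cdh5, which encodes VE-cadherin, with 139, 182 and 213 in WT mice and 89.9, 45.8 and 38.2 in BCS mice. Cdh5 fell with a difference of -1.68 (standard error 0.32, limma adjusted p = 0.0167). It was the 1 of the 8 markers that fell, and none rose, beside 4.7% and 3.15% of all genes. In RNA of sorted cells, fewer cells of a type and less RNA per cell cannot be told apart.

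In the gene order of the RefSeq annotation, Adgrl2 and Adgrl4 are next to each other on chromosome 3, and Adgre5 and Adgrl1 are next to each other on chromosome 8. On chromosome 8 also lie Adgrg5, Adgrg1 and Adgrg3 in direct succession. The differences of neighbors were unlike in size, at 1.77 (standard error 0.16) for Adgrl2 and 0.02 (standard error 0.19) for Adgrl4, and at 1.27 (standard error 0.16) for Adgrg1 and 0.08 (standard error 0.13) for Adgrg3. Adgre5 and Adgrl1 had differences of -0.05 (standard error 0.26) and -0.16 (standard error 0.17). Adgrg5 has no probe set with 1 symbol.

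Adgrg1, which encodes GPR56, a receptor of collagen III in the developing brain that is also carried by hematopoietic stem cells, had intensities of 1262, 1339 and 1108 in WT mice and of 3645, 3012 and 2386 in BCS mice on its brightest probe set, 1433485_x_at. The BCS mice were all above the WT mice, with means of 3014 ± 629 (SD, n = 3) and 1236 ± 117 (SD, n = 3). The difference was 1.27 on the log2 scale (standard error 0.16), or 2.41-fold. Probe sets with the suffix x can also bind other transcripts, and 1421118_a_at, which has another suffix, gave 894, 1064 and 749 in WT mice and 2624, 2142 and 1937 in BCS mice. The order of the 3 BCS mice was the same on both probe sets, and the second had a difference of 1.31 (standard error 0.17). Of 7 measured stem and progenitor markers, none rose and 1 fell, Cd34, which encodes a surface sialomucin of these cells, from 471 ± 155 (SD, n = 3) to 136 ± 51.4 (SD, n = 3), a difference of -1.80 (standard error 0.35, limma adjusted p = 0.0188). The summed stem and progenitor intensity was 1382 to 2385 in WT mice and 1321 to 1438 in BCS mice, where Mecom was dim on every array. Human NK cells also carry GPR56. All 8 measured NK cell markers had lower BCS means in these mice. Their summed intensity was 8215 to 14855.5 in WT mice and 1458 to 4246 in BCS mice. Of the 8, 1 fell by the test, Klrd1 (limma adjusted p = 0.000982), beside 4.7% of all genes. Klrd1 alone was 6901, 8110 and 7943 in WT mice and 1087, 1306 and 2430 in BCS mice, a large part of these sums. For each of the other NK cell markers the genotypes overlapped.

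Adgrg3, which encodes GPR97, a receptor known from granulocytes, had intensities of 5699.8, 5883 and 7191 in WT mice and of 7246, 5466 and 7116 in BCS mice. The genotypes overlapped, with a difference of 0.08 (standard error 0.13). Neutrophil transcripts varied between mice. The summed intensity of 10 neutrophil markers ran from 24351.5 to 101890 in WT mice and from 9487 to 70193.5 in BCS mice, with WT replicate 2 the highest and BCS replicate 1 the lowest, and none of the 10 passed the test. On these same arrays Adgrg3 was 5883 and 7246. The part of granulocytes in the Adgrg3 values was not tested.

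Adgrg6, which encodes GPR126, a receptor that Schwann cells need to myelinate nerves, had intensities of 16.5, 16.2 and 10.9 in WT mice and of 26.2, 25.2 and 45.7 in BCS mice on probe set 1437409_s_at. All WT mice were below and all BCS mice above the array median, and BCS replicate 3 stood above the other two. The difference was 1.07 (standard error 0.25). The WT values are background, so the size depends on the offset before log2: with an offset of 16 the difference was 0.64, and Adgrg6 lay past the threshold in 7 of 19 alternative settings and in none of the fits that left out 1 mouse. Its other probe set, 1437408_at, was dim on every array but higher than 1437409_s_at in 2 of the 3 WT mice, with a difference of 0.12 (standard error 0.11).

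Adgre1, the gene of F4/80, had intensities of 70.1, 122 and 34.2 in WT mice and of 24.9, 25.6 and 51.3 in BCS mice. The genotypes overlapped, since BCS replicate 3 was above WT replicate 3, and the spread between WT mice was 44.3 (SD, n = 3) around a mean of 75.5. The difference of -1.03 (standard error 0.44) became -0.60 without WT replicate 2 and -1.50 without WT replicate 3. Of 9 measured macrophage markers, all had lower BCS means and 2 fell by the test, beside 4.7% of all genes. They were Csf1r, the receptor of macrophage colony-stimulating factor, with a difference of -2.40 (standard error 0.30, limma adjusted p = 0.00211), and the lysosomal gene Cd68 with -1.67 (standard error 0.17, limma adjusted p = 0.000751). The summed intensity of the 9 markers was 6071 to 14828 in WT mice and 2432 to 6703 in BCS mice, and no macrophage marker was dim on every array. A large part of these sums was Lyz2, with 2730, 7116 and 1840 in WT mice and 1137, 5652 and 3716 in BCS mice. These overlapped, with a difference of -0.19 (standard error 0.61, limma adjusted p = 0.918). C1qb, a complement gene of macrophages, had 770.4, 1845 and 403 in WT mice and 111, 143 and 425 in BCS mice, and all 6 mice stood in the same order as for Adgre1. C1qa, C1qc and Mertk had this order too, while Csf1r, Cd68, Lyz2, Fcgr1 and Itgam did not. Whether the number of macrophages in the sort has a part in the Adgre1 values was not tested.

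Adgre5, the gene of CD97, had intensities of 628, 1161 and 625 in WT mice and of 876, 576 and 812 in BCS mice. WT replicate 2 was the highest of the 6 mice and BCS replicate 2 the lowest, and the genotypes overlapped, with a difference of -0.05 (standard error 0.26). Without WT replicate 2 the difference was 0.24.

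**Figure D2:**
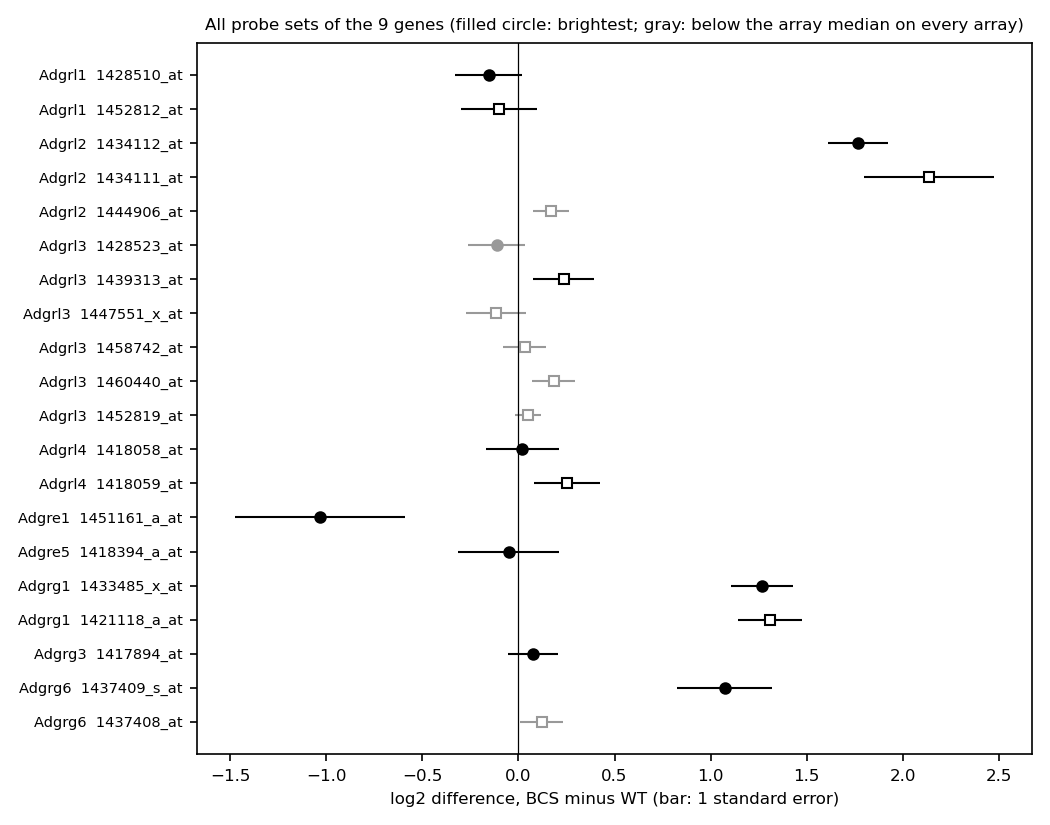
Difference between BCS and WT EPLMs on the log2 scale (horizontal axis, bars are 1 standard error) for each of the 20 probe sets of the 9 genes. Filled circles are the brightest probe set of a gene, open squares its other probe sets, and gray symbols were below the array median on all 6 arrays. Both Adgrg1 probe sets and 2 of 3 Adgrl2 probe sets lie above 1, as does the brighter Adgrg6 probe set.

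Of the other adhesion receptor genes of the mouse, 16 of 21 had a probe set with 1 symbol, and 10 of them were dim on all 6 arrays. Celsr1, a receptor of planar cell polarity, rose from 43.4, 42.7 and 31.3 in WT mice to 81.5, 85.2 and 62.5 in BCS mice, a difference of 0.95 (standard error 0.21, limma adjusted p = 0.0304). Adgre4, a myeloid relative of Adgre1, fell from 149, 281 and 43.4 in WT mice to 13.3, 19.5 and 26.8 in BCS mice, a difference of -2.62 (standard error 0.58, limma adjusted p = 0.0329). BCS replicates 1 and 2 were below the array median for Adgre4, so the size depends on the offset, and with an offset of 16 it was -2.01. The genotypes did not overlap for either gene, and the order of the mice within each genotype was the same for Adgre4 as for Adgre1. The counts of 1 higher and 1 lower of 16 stand beside 3.15% and 4.7% of all genes. Adgra3 did not pass, with a difference of 0.68 (standard error 0.31, limma adjusted p = 0.296), nor did the dim Adgrb2, with 0.29 (standard error 0.11, limma adjusted p = 0.188, and 0.0490 without WT replicate 3, the lowest of its alternatives, with 0.429 the highest). The median difference over the 16 genes was -0.03. The Celsr1 call was lost without any of the mice but BCS replicate 3, and the Adgre4 call without any but WT replicate 3. Over all alternatives the adjusted p ran from 0.0159 to 0.164 for Celsr1 and from 0.00249 to 0.274 for Adgre4, with limma or the methods' t-test adjusted over all probe sets.

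Of 21 genes of known binding partners of the 9 receptors, 20 were measured. The teneurin genes Tenm1, Tenm2 and Tenm3 and the genes Flrt1, Flrt2 and Flrt3, all partners of latrophilins, were dim in every mouse. The fourth teneurin gene, Tenm4, was above the array median on 3 arrays and reached 38.1 in BCS replicate 2, and Nrxn3, which encodes another latrophilin partner, was above it on 5 arrays, with 17.1 to 25.1 over the 6 mice. Neither passed. Col3a1, the collagen partner of GPR56, and Lama2, a laminin partner of GPR126, were dim as well. Of the 20 partners 1 rose and none fell, beside 3.15% and 4.7% of all genes. This was Thy1, the gene of CD90, a partner of CD97, which went from 401, 898 and 599 in WT mice to 1917, 1616 and 1438 in BCS mice, a difference of 1.45 (standard error 0.26, limma adjusted p = 0.0143). Cd55, the other well-known partner of CD97, had a difference of 0.19 (standard error 0.24, limma adjusted p = 0.757). Prnp, the prion protein gene and a partner of GPR126, was 828, 759 and 737 in WT mice and 1041, 1482 and 1089.5 in BCS mice, and its difference of 0.62 (standard error 0.16) did not pass (limma adjusted p = 0.0636). Tgm2, a transglutaminase that binds GPR56, had a difference of -0.85 (standard error 0.40, limma adjusted p = 0.300) and the integrin gene Itgb3 one of -1.52 (standard error 0.52, limma adjusted p = 0.150). In Itgb3, WT replicate 2 stood apart with 854 beside 249 and 239.6 in the other WT mice. The Thy1 call was lost without WT replicate 3, BCS replicate 1 or BCS replicate 2 (limma adjusted p = 0.0511, 0.0508 and 0.0531, and 0.00395 to 0.197 over all alternatives), and Prnp passed with robust variances and with dim probe sets left out. Tgm2 passed without WT replicate 3 (limma adjusted p = 0.0474, the lowest of its alternatives, with 0.606 the highest). Cd55 and Prnp were named after their values had been seen.

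Inside the cell, these receptors signal through G proteins, those of the G12 class switching on the GTPase RhoA by way of guanine nucleotide exchange factors, and GPR56 is held in complexes with the tetraspanins CD9 and CD81. All 17 genes of this list were measured, and 2 rose and 4 fell, beside 3.15% and 4.7% of all genes. Of the 17, 15 were above the array median on all 6 arrays, and 12.5% of all genes that bright passed in either direction. Cd81 rose from 3198, 3224 and 2831 in WT mice to 5460.2, 5035 and 4849 in BCS mice, a difference of 0.73 (standard error 0.09, limma adjusted p = 0.00211). Cd9 had 219, 881 and 197 in WT mice and 684, 676 and 541 in BCS mice, and its difference of 0.90 (standard error 0.49) did not pass (limma adjusted p = 0.387). WT replicate 2 lay above all BCS mice, and without it the difference was 1.60 (limma adjusted p = 0.00355, the lowest of its alternatives, with 0.693 the highest). Arrb1, which encodes a beta-arrestin that ends receptor signaling, rose from 125, 143 and 97.2 in WT mice to 468, 318 and 323 in BCS mice, a difference of 1.59 (standard error 0.22, limma adjusted p = 0.00378).

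The genes that fell encode G protein alpha subunits outside the G12 class. Gnai1, an inhibitory subunit, went from 37.6, 48.0 and 150.1 in WT mice to 12.1, 11.8 and 9.84 in BCS mice, which is background, and its difference was -2.43 (standard error 0.43, limma adjusted p = 0.0126), or -1.61 with an offset of 16. The products of Gnaq and Gna11 activate phospholipase C. Gnaq had a difference of -0.82 (standard error 0.13, limma adjusted p = 0.00651) and Gna11 one of -0.78 (standard error 0.13, limma adjusted p = 0.00985), with no overlap between the genotypes. Gnas, the gene of the stimulatory subunit, had a smaller difference of -0.28 (standard error 0.06, limma adjusted p = 0.0313), and its call was lost in 10 of 17 alternative settings, among them the fits without any of the mice but BCS replicate 1. The genes of the route to RhoA did not pass: Gna12 had a difference of 0.16 (standard error 0.21), Gna13 of 0.17 (standard error 0.10), Rhoa of -0.17 (standard error 0.07) and Arhgef11, an exchange factor of this route, of -0.39 (standard error 0.21). The genotypes did not overlap for Rhoa, as for 14.2% of genes on the lower side. The other Gna13 probe sets had differences from -0.18 to 0.54, and none of them passed. Gna12, Gna13 and Rhoa were named after their values had been seen. Leaving out WT replicate 3 ended the Gna11 call (limma adjusted p = 0.0508, the highest of its alternatives, with 0.00333 the lowest). Leaving out BCS replicate 3 ended the Gnai1 call (limma adjusted p = 0.0544, and 0.00135 to 0.204 over all alternatives).

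**Figure D3:**
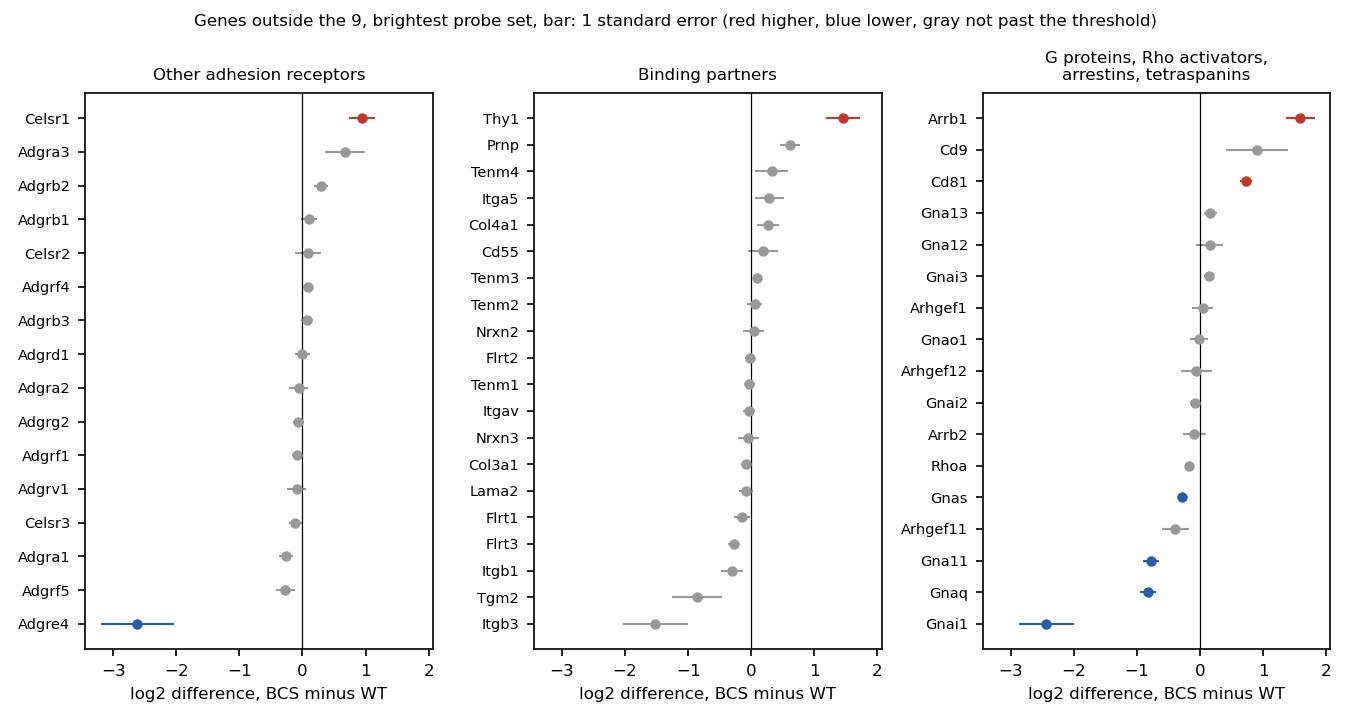
Difference between BCS and WT EPLMs on the log2 scale (horizontal axis, bars are 1 standard error) for 16 other adhesion receptor genes, 20 binding partners and 17 signaling genes, each by its brightest probe set. Red genes rose and blue genes fell by limma, 4 and 5 in all, and gray genes did not pass.

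Of all single-symbol probe sets whose mean was above the array median in WT or BCS mice, the log2 values of Id3 followed those of Adgrl2 most closely over the 6 arrays (Pearson r = 0.998), ahead of Syvn1 (r = 0.998), Txn1 (r = 0.997), Dnajc6 (r = 0.997) and Car13 (r = 0.997). The intensities of Id3 were 399.8, 511 and 324 in WT mice and 1626, 1536 and 1453 in BCS mice. For Adgre1, the closest were Igf2bp3 (r = 0.996), C1qb on a dimmer probe set (r = 0.987), Yme1l1 (r = 0.987), Tubb5 (r = 0.987) and Tgm2 (r = 0.986). Igf2bp3 was 20.02, 25.1 and 15.4 in WT mice and 14.3, 13.6 and 18.4 in BCS mice, so it entered the ranking through its WT mean and its place rests on values near background. These are the highest of 19740 probe sets, the points share the 6 arrays and the difference between the genotypes, and no test was made.

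**Figure D4:**
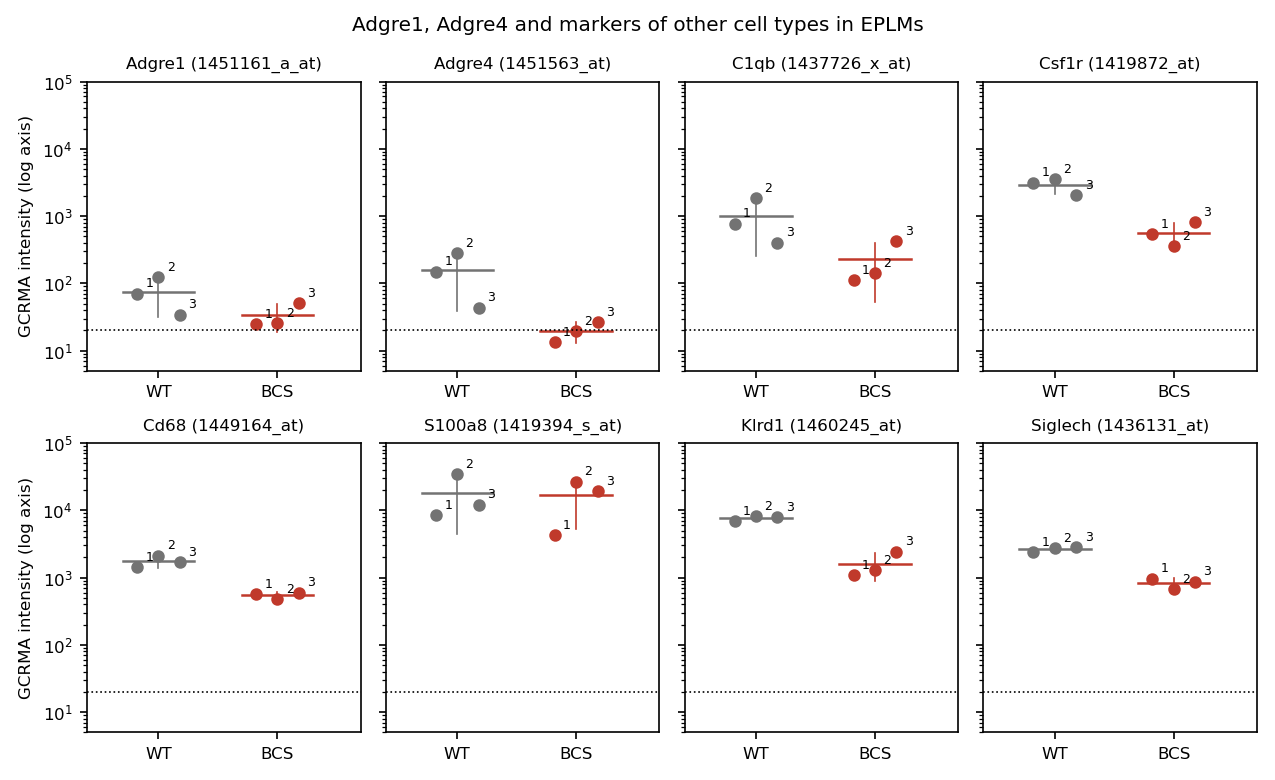
GCRMA intensity (log axis) of Adgre1, Adgre4, the macrophage markers C1qb, Csf1r and Cd68, the neutrophil marker S100a8, the NK cell marker Klrd1 and the plasmacytoid dendritic cell marker Siglech in EPLMs. Points are single mice with their replicate number (gray for WT, red for BCS), with the mean as a horizontal bar, 1 SD on each side as a vertical line and the array median dotted. WT replicate 2 is the highest WT mouse for all of these genes but Siglech.

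The sorting genes Kit, Cd93 and Ptprc and the progenitor receptor genes Flt3 and Il7r were above the array median on all 6 arrays, and Klrb1c was not measured by a probe set of its own. Of the 5 measured genes none rose and 2 fell, beside 3.15% and 4.7% of all genes. These were Ptprc, whose products include B220, and Flt3 (limma adjusted p = 0.0101 and 0.000650). Plasmacytoid dendritic cell markers fell in 7 of 8 cases and none rose, beside 4.7% and 3.15% of all genes. Their summed intensity was 71343 to 78482 in WT mice and 33596 to 44574 in BCS mice. Irf8 was a large part of these sums, with 39993, 38751 and 39670 in WT mice and 29268, 23426 and 25736 in BCS mice. The marker that did not pass was Spib, with a difference of 0.25 (standard error 0.12, limma adjusted p = 0.309). Its genotypes did not overlap, as for 14.5% of genes on the higher side. Of 5 eosinophil markers none passed, and their summed intensity was 396 in WT replicate 2 and 55.5 to 109 in the other mice. The part of these cell types in the differences of the 9 receptor genes was not tested.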

How the data were processed

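RNA of sorted EPLMs of 3 WT and 3 BCS mice was measured on Affymetrix mouse GeneChips, 1 mouse per array. The deposited values are intensities that the authors obtained with GCRMA (version not given in the sources used here), background-corrected, on a linear scale and with 1 common distribution over the EPLM arrays. Labeling took 2 cycles by the methods but 1 by the labels. The 7 Large PreB arrays were not used, since their values do not follow the probe set names (r = 0.0944 between the cell types' mean log2 values over 45037 probe sets, and 0.978 over 64 control features). The model, with genotype alone, used log2 values after adding 1 (limma 3.58.1 under R 4.3.3, eBayes with an intensity trend) over 45037 probe sets with Benjamini-Hochberg adjustment. The fit was tested on simulated data. By the platform annotation, 34945 probe sets have 1 symbol, 932 several and 9160 none. Each gene was read by its brightest probe set with 1 symbol over the 6 arrays. The members and lists were chosen with earlier results of these data known. Named by rule were all 9 genes and the genes of the receptor, partner and signaling lists that passed (up to 6 a list) with the 2 largest that did not. The rule also took the 5 genes most like the members with the largest rise and fall. Other genes, among them Tenm4, Nrxn3, Col3a1, Lama2 and the cell type markers, were named outside this rule, and only some are marked in the text. Promoters and gene order came from RefSeq (GRCm38.p6). No genome build is stated with the array data. The number of arrays limits the precision. Alternatives were other tests, moderation, filters, offsets, scalings, thresholds, weights, a replicate block, other rules for the probe set and leaving out each mouse.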

Additional observations from a re-analysis of the deposited data

How the results depend on the processing

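In all, 2472 probe sets passed, 1007 higher and 1465 lower. With the methods' t-test 267 passed, at an adjusted p under 0.01 1057, with medians at least 2-fold apart 1156, and without single mice 1401 to 2241 (1401 without BCS replicate 2, 1430 without WT replicate 3 and 1591 without BCS replicate 3). Of the 9 receptor genes, 3 were past the threshold, 1 with the methods' t-test (Adgrl2) and 2 without any single mouse (Adgrl2 and Adgrg1). Of the other adhesion receptors, 2 passed, 0 with the methods' t-test and at an adjusted p under 0.01, 1 without the trend, with robust variances or with medians 2-fold apart, and 0 to 2 without single mice. Of the partners, 1 passed, 0 with the methods' t-test and at an adjusted p under 0.01, 2 with robust variances or the filter on dim probe sets, and 0 to 1 without single mice. Of the 17 signaling genes, 6 passed, 1 with the methods' t-test (Gna11), 2 with medians 2-fold apart and 4 to 6 without single mice. The cause of these shifts was not tested, apart from the stricter rules, which pass fewer genes by construction. Among the 9 receptor genes and 15 named genes of the other lists, no called direction turned in any alternative. This was not looked at for the other probe sets. The most variable probe set gave Adgrl2 a difference of 2.14 and the mean of its probe sets one of 1.36. Same-numbered mice did not deviate together (r of -0.03, 0.05 and 0.09 over 20381 probe sets), and the labels tie no number to a litter. With the replicate number as a block, 1920 probe sets, 2 of the 9 receptors, 2 other receptors, 1 partner and 5 signaling genes passed. The arrays share 1 distribution, so quantile normalization moved little (2475 probe sets). Dim probe sets limit Adgrl3 and the WT values of Adgrg6.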
